A study of Bos taurus with 10 samples.

Results

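The trophectoderm transcription factors are 10 genes, GATA2, GATA3, TFAP2A, TFAP2C, CDX2, TEAD4, ELF3, EOMES, ID2 and MSX2, of 17499 named genes on the array. They were chosen by name and not by a measured value, though earlier results of these data were known. Every probe that carried one of these names was used, which gave 24 probes. 0 of the 24 were named by their description alone, and 1 probe whose description mentions GATA2 belongs to another gene and was left out. Superovulated cows received senktide, a peptide that activates the neurokinin-3 receptor, and the question was whether embryo quality and developmental stage changed. Infusion was intravenous, lasted 2 h and began 48 h into superovulation. Cows of all groups were superovulated and inseminated with frozen and thawed semen at 108 and 120 h, and embryos were flushed from the uterus on day 7. The groups were vehicle (labelled DMSO, n = 2), senktide at 30 nmol/min (n = 4) and senktide at 300 nmol/min (n = 4), each sample on 1 array. Neither the cows' breed and age nor the number of embryos in a sample is in the labels used here. They do not say whether samples came from separate cows, so the spread behind the p-values is that of these samples and may be technical. The labels' extraction text names endometrium, while title, source and tissue name embryos, as the samples are called here.

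The trophectoderm is the outer epithelium of the blastocyst and gives rise to the fetal part of the placenta. In the mouse, TEAD4 binds DNA for the Hippo pathway's coactivators in outer cells, and CDX2 and GATA3 act downstream of it. GATA2, GATA3, TFAP2A and TFAP2C are trophoblast activators in several mammals. EOMES is a T-box factor of mouse trophoblast stem cells, ELF3 an epithelial ETS factor, MSX2 a homeobox repressor, and ID2 an inhibitor that binds basic helix-loop-helix factors without binding DNA.

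Each probe is a strand of 60 bases, and a transcript with several probes can be read at more than 1 position. Positions below count from the first base of the transcript that the probe was designed on, and probes of 1 gene are named by that position. The sequences that follow show both ends of the pattern in the next paragraphs. The first set holds 6 probes that lay nearer the start of their transcript, or belonged to a gene read on 0 arrays, each printed whole in lower case, 5′ to 3′ as the files give it.
GATA2 at base 337: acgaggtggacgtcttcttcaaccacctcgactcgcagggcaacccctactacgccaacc
TFAP2C at base 226: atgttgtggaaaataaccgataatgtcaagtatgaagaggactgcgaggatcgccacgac
TFAP2A at base 1276: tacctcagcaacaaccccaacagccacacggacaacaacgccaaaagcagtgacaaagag
CDX2 at base 3: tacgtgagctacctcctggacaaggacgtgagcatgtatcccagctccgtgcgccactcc
TEAD4 at base 1226: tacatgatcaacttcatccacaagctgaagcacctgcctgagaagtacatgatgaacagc
ELF3 at base 1400: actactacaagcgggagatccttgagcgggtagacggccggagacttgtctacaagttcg

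The second set holds the last 30 bases of the probe nearest the end of the transcript for 5 genes. Capitals mark AATAAA, the letters of the polyadenylation signal that sits near the end of many messenger RNAs.
GATA2 at base 2944: tccttcaaagtgaatactgttaagaataat
GATA3 at base 1925: catttgtgaataagccattcagactcacat
TFAP2C at base 2721: ctaaataattgttgtgtatatgaaacctgt
ELF3 at base 2044: ctccAATAAAgtgccttctggactttttct
TFAP2A at base 2701: tgcccagataAATAAAtatttgatacgctt
AATAAA stood in 2 of the 24 member probes, those of ELF3 at base 2044 and TFAP2A at base 2701, and in 9.35% of all 43653 probes. It stood in 24.5% of the 2491 probes flagged as well above background on every array and in 6.67% of the 32476 that were so on 0 arrays. The other strand's letters, TTTATT, stood in 0 member probes and 3.46% of all probes. Median GC content was 45% in the 6 member probes that could be tested and 45% in the other 18.

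GATA2, GATA3 and TFAP2C were read on every array, CDX2, TEAD4, EOMES and ID2 on 0 arrays, and the other genes on some. "Well above background" is the scanner software's flag for a spot brighter than its surroundings, and it was set on 4 to 6 of the 24 member probes per array. Vehicle arrays had 5 and 4 such probes, the 30 nmol/min arrays 5, 4, 6 and 5, and the 300 nmol/min arrays 4, 5, 6 and 5. The groups' counts overlapped. Of the 24 probes, 3 were flagged on all 10 arrays, 16 on 0 and 2 on 1 array. The share of all spots so flagged ran from 7.17% to 19.6% per array. The 4 arrays of slide 3, which held replicates 3 and 4 of both senktide groups and no vehicle array, had the 4 highest shares, 18.3% to 19.6%.

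**Figure D1:**
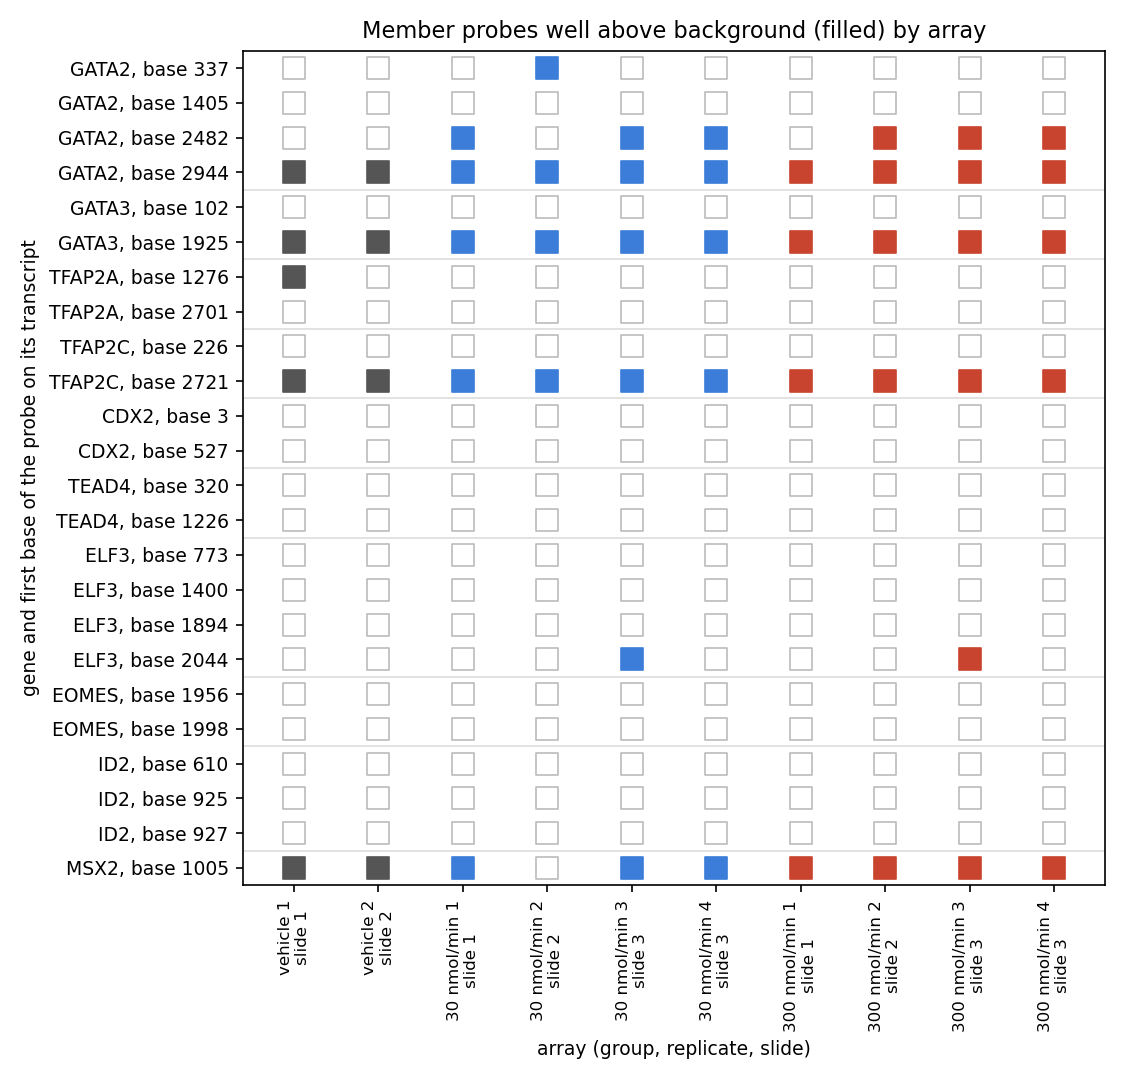
Map of the 24 member probes (rows, by gene and first base on the transcript) against the 10 arrays (columns, by group, replicate and slide). A filled square is a probe well above background on that array; 3 rows are filled throughout and 16 are empty.

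Detection lay at the far end of the transcript for the 3 genes read on all arrays. GATA2, a zinc finger factor, has 4 probes on chromosome 22 of the Btau_3.1 build, plus strand. In genome order they span chr22:61192274-61192333, chr22:61197266-61197325, chr22:61198324-61198383 and chr22:61198786-61198845. The first was well above background on 1 array, the second on 0, the third on 6 and the last on all 10. The first pair was designed on an Ensembl transcript at bases 337 and 1405 and the second on a predicted RefSeq transcript at bases 2482 and 2944, so the genome gives their order.

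GATA3, its close relative, has a probe at base 102 (chr13:14699023-14699082, minus strand) that was well above background on 0 arrays. Its probe at base 1925 (chr13:14680788-14680847) was so on 10. TFAP2C, an AP-2 factor, repeated the split. Its probe at base 226 covers chr13:60157315-60158991, a stretch of 1677 bases for a probe of 60, so it crosses an intron, and was flagged on 0 arrays. Its probe at base 2721 (chr13:60149681-60149740, minus strand) was flagged on 10.

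The same order outnumbered its reverse across the array. Among 9123 accessions with a first and a last probe at least 60 bases apart, 844 (9.25%) had the last probe alone flagged on all 10 arrays, while 85 (0.932%) had the first alone. Both were so in 140 (1.53%) and neither in 8054 (88.3%). Of 9 member accessions, 3 had the last alone, 0 the first alone and 6 neither. The part of labelling in this was not tested.

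TEAD4, and CDX2, which acts downstream of it in the mouse, were read on 0 arrays. The TEAD4 probe at base 320 spans chr5:113660436-113675912 across an intron, minus strand, and its signals ran from 2.19 to 5.04 scanner units. Its probe at base 1226 (chr5:113645029-113645088) ran from 2.85 to 16.8, highest in replicates 3 and 4 at 300 nmol/min. The CDX2 probes, at base 3 (chr12:32027055-32027114, plus strand) and base 527 (chr12:32027579-32031133, across an intron), ran from 1.97 to 11.2 and from 3.60 to 10.54. For comparison, the lowest signal that carried the flag was 9.47 to 14.9 units, depending on the array, and the TEAD4 value of 16.8 did not carry it. No fold was computed for either gene.

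EOMES and ID2 were also read on 0 arrays. The EOMES probes, at base 1956 (chr22:1937685-1937744, minus strand) and base 1998 (chr22:1937643-1937702), share 18 bases and are not independent readings; their signals ran from 2.47 to 7.35 and from 2.80 to 3.93. ID2 has a probe at base 610 with no position in the files and a pair at chr11:91375859-91375918, minus strand. That pair is 1 site read from 2 transcript records, and the sequences differ at 3 bases, G19A, A22T and T58G, counted from 1 at the first base of the probe at base 927, whose base stands first. The probe at base 927 ran from 3.30 to 14.8 units and its near copy from 2.04 to 5.19. The highest ID2 value, 14.8, was on replicate 4 at 300 nmol/min.

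TFAP2A, the second AP-2 factor, was read on 1 array. Its probe at base 1276 (chr23:46400501-46400560, plus strand) was well above background on vehicle replicate 1 alone, at 14.8 units. Its other values were 7.61 in vehicle, 11.4, 7.94, 2.32 and 2.08 in the 30 nmol/min group, and 10.9, 7.96, 2.14 and 2.76 in the 300 nmol/min group. All 4 slide 3 arrays lay below the 6 others, although slide 3 was the brightest. The GATA2 probe at base 337 ran the same way, at 2.53 to 8.30 on slide 3 and 9.42 to 18.9 on slides 1 and 2. The TFAP2A probe at base 2701 (chr23:46401925-46401984) ran from 3.64 to 8.04, with 0 arrays well above background.

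ELF3 was read on 2 arrays. Its 4 probes, at bases 773, 1400, 1894 and 2044, have no genome position in the files, and the first 3 were well above background on 0 arrays. The last, which carries AATAAA, gave 2.78 and 5.41 units in vehicle, 6.98, 2.62, 27.0 and 9.80 in the 30 nmol/min group, and 3.89, 2.34, 39.8 and 9.70 in the 300 nmol/min group. Replicate 3 of each senktide group, both on slide 3, was well above background at 27.0 and 39.8, and the other 8 arrays were not.

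Before scaling, the member signals followed the brightness of the array. The scale of an array is the 75th percentile of the signal over the 2491 probes that every array read well above background, and it ran from 79.4 to 481 units, 6.06-fold. The GATA2 probe at base 2944 gave 40.7 and 70.35 units in vehicle, 127.5, 72.3, 323 and 275 in the 30 nmol/min group, and 132, 85.1, 445 and 340 in the 300 nmol/min group. That is a range of 10.9-fold, and its log2 signal correlated with the log2 scale at r = 0.983 over the 10 arrays. GATA3 ranged 7.80-fold (r = 0.976), TFAP2C 9.55-fold (r = 0.966) and MSX2 7.01-fold (r = 0.974). The GATA2 probe at base 2482 ranged only 2.94-fold (r = 0.603) and lay between 12.5 and 17.5 on the bright slide 3. These correlations share the arrays' brightness and are descriptions.

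**Figure D2:**
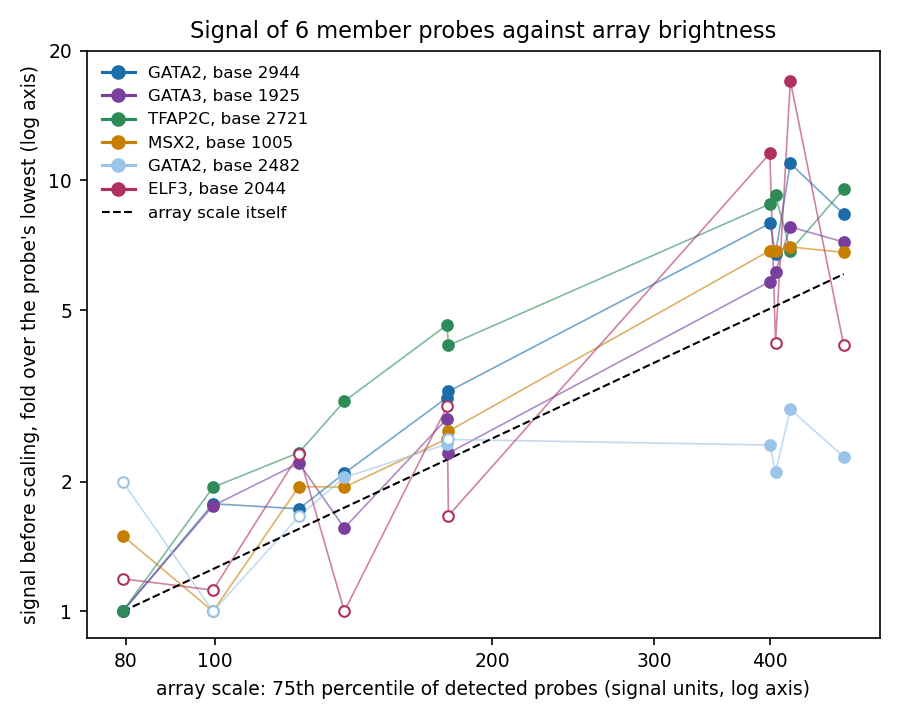
Signal of 6 member probes, as a fold over each probe's own lowest signal (log axis), against the scale of the array (log axis, signal units), with 10 arrays per probe and filled points where well above background. The dashed line is the scale itself, which rises 6.06-fold; the GATA2 probe at base 2482 rises only 2.94-fold.

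All values from here are log2 of the signal minus log2 of the array's scale, and the tests are limma's, fitted over the 8934 probes well above background on at least 2 arrays, with p-values adjusted by Benjamini-Hochberg over all of them. Of the members, 6 probes of 5 genes entered the tests, those of GATA2 at bases 2482 and 2944, GATA3, TFAP2C, MSX2 and ELF3, and the other 18 did not pass the filter on dim probes.

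At 30 nmol/min against vehicle, 0 of 6 member probes passed an adjusted p of 0.05, and 0 of 8934 probes did so overall (0%). In the comparison of 300 nmol/min with vehicle 0 of 6 passed, beside 1 probe in all (0.0112%), for the exonuclease gene REXO2. That probe was well above background on 0 vehicle arrays and 4 in each senktide group, so it entered the tests through senktide arrays alone. Between the doses 0 of 6 passed, beside 0 of all tested probes (0%). At an unadjusted p under 0.05 limma had 1, 0 and 0 member probes in these comparisons, and 1006, 1236 and 268 probes overall (11.26%, 13.83% and 3.00%). The median member difference was −0.03, −0.15 and −0.04, beside −0.11, −0.11 and −0.01 over all tested probes. The members that passed the filter include 2 probes that were dim in vehicle, so these medians are descriptions. Both dose comparisons use the same 2 vehicle arrays and are not independent.

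GATA2 lay higher on every senktide array than on either vehicle array at its last probe, base 2944. Values were −0.97 and −0.81 in vehicle, −0.49, −0.46, −0.31 and −0.56 in the 30 nmol/min group, and −0.44, −0.70, 0.08 and −0.50 in the 300 nmol/min group. The highest value was replicate 3 at 300 nmol/min, and neither senktide group overlapped vehicle. The means were −0.89 ± 0.11 (SD, n = 2), −0.45 ± 0.11 (n = 4) and −0.39 ± 0.33 (n = 4). The difference was 0.43 (SE 0.23, 95% interval −0.09 to 0.96, limma adjusted p = 0.488) at 30 nmol/min and 0.50 (SE 0.23, −0.03 to 1.02, limma adjusted p = 0.374) at 300 nmol/min. It was 0.06 (SE 0.19, −0.36 to 0.49, limma adjusted p = 0.999) between the doses. Within slide 1, 1 array against 1, the 30 and 300 nmol/min arrays lay 0.48 and 0.52 above vehicle, and within slide 2 they lay 0.35 and 0.11 above.

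The third GATA2 probe, base 2482, had fitted differences below 0. Values were −2.74 and −3.64 in vehicle, −3.62, −4.06, −4.79 and −5.02 in the 30 nmol/min group, and −3.59, −3.51, −4.59 and −5.15 in the 300 nmol/min group. The 4 lowest were the 4 arrays of slide 3. The probe was well above background on 0 vehicle arrays and 3 of 4 in each senktide group. Vehicle therefore has only a bound, which lay above the senktide means, so no fold is given. The fitted differences were −1.18 (SE 0.55, limma adjusted p = 0.460) and −1.02 (SE 0.55, limma adjusted p = 0.417). With slide as a block they were −0.59 and −0.42, without vehicle replicate 1 −0.73 and −0.57, and without vehicle replicate 2 −1.63 and −1.47. Relative to the median of all tested probes they were −1.07 and −0.91. Taking the 75th percentile over all probes gives the same relative values by construction.

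TFAP2C, at base 2721, had the only unadjusted p under 0.05 among the members. Values were −2.09 and −1.50 in vehicle, −1.05, −1.46, −1.28 and −1.23 in the 30 nmol/min group, and −1.21, −1.27, −1.71 and −1.43 in the 300 nmol/min group. All 4 arrays at 30 nmol/min lay above both vehicle arrays, as did 3 of 4 at 300 nmol/min, with replicate 3 below vehicle replicate 2. The means were −1.79 ± 0.42 (SD, n = 2), −1.26 ± 0.17 (n = 4) and −1.40 ± 0.23 (n = 4). The difference was 0.54 (SE 0.24, 95% interval 0.00 to 1.07, limma unadjusted p = 0.049, adjusted p = 0.441) at 30 nmol/min and 0.39 (SE 0.24, −0.15 to 0.92, limma adjusted p = 0.457) at 300 nmol/min. Between the doses it was −0.15 (SE 0.20, −0.59 to 0.29, limma adjusted p = 0.999). The size depended on the vehicle array used. Without vehicle replicate 1 the differences at the 2 doses were 0.24 and 0.09, and without vehicle replicate 2 they were 0.83 and 0.68. Within slide 2 they were 0.04 and 0.23, against 1.04 and 0.88 within slide 1.

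GATA3, at base 1925, overlapped between all groups. Values were −1.60 and −1.09 in vehicle, −1.28, −1.11, −1.39 and −1.34 in the 30 nmol/min group, and −1.55, −1.76, −1.04 and −1.35 in the 300 nmol/min group. The means were −1.35 ± 0.36 (SD, n = 2), −1.28 ± 0.12 (n = 4) and −1.43 ± 0.30 (n = 4). The differences were 0.07 (SE 0.25, 95% interval −0.48 to 0.62, limma adjusted p = 0.924), −0.08 (SE 0.25, −0.63 to 0.47, limma adjusted p = 0.893) and, between the doses, −0.15 (SE 0.20, −0.60 to 0.30, limma adjusted p = 0.999). Within slides 1 and 2 the 30 nmol/min arrays lay 0.32 and −0.02 from vehicle, and the 300 nmol/min arrays 0.05 and −0.66.

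MSX2 has 1 probe, at base 1005 (chr20:6609002-6609061, plus strand), well above background on 9 arrays. Values were −2.43 and −2.69 in vehicle, −2.86, −3.34, −2.57 and −2.59 in the 30 nmol/min group, and −2.80, −2.86, −2.61 and −2.85 in the 300 nmol/min group. The lowest, −3.34, was replicate 2 at 30 nmol/min, the 1 array on which the probe was not well above background. The means were −2.56 ± 0.18 (SD, n = 2), −2.84 ± 0.36 (n = 4) and −2.78 ± 0.11 (n = 4), and the groups overlapped. The differences were −0.28 (SE 0.25, 95% interval −0.83 to 0.28, limma adjusted p = 0.643), −0.22 (SE 0.25, −0.77 to 0.33, limma adjusted p = 0.684) and, between the doses, 0.06 (SE 0.20, −0.39 to 0.51, limma adjusted p = 0.999).

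ELF3, at base 2044, had 0 vehicle arrays and 1 array of each senktide group well above background. The bound in vehicle lay above the senktide means and no fold is given. The fitted differences were −0.12 (SE 0.67, limma adjusted p = 0.947), −0.44 (SE 0.67, limma adjusted p = 0.772) and −0.32 (SE 0.54, limma adjusted p = 0.999) between the doses.

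**Figure D3:**
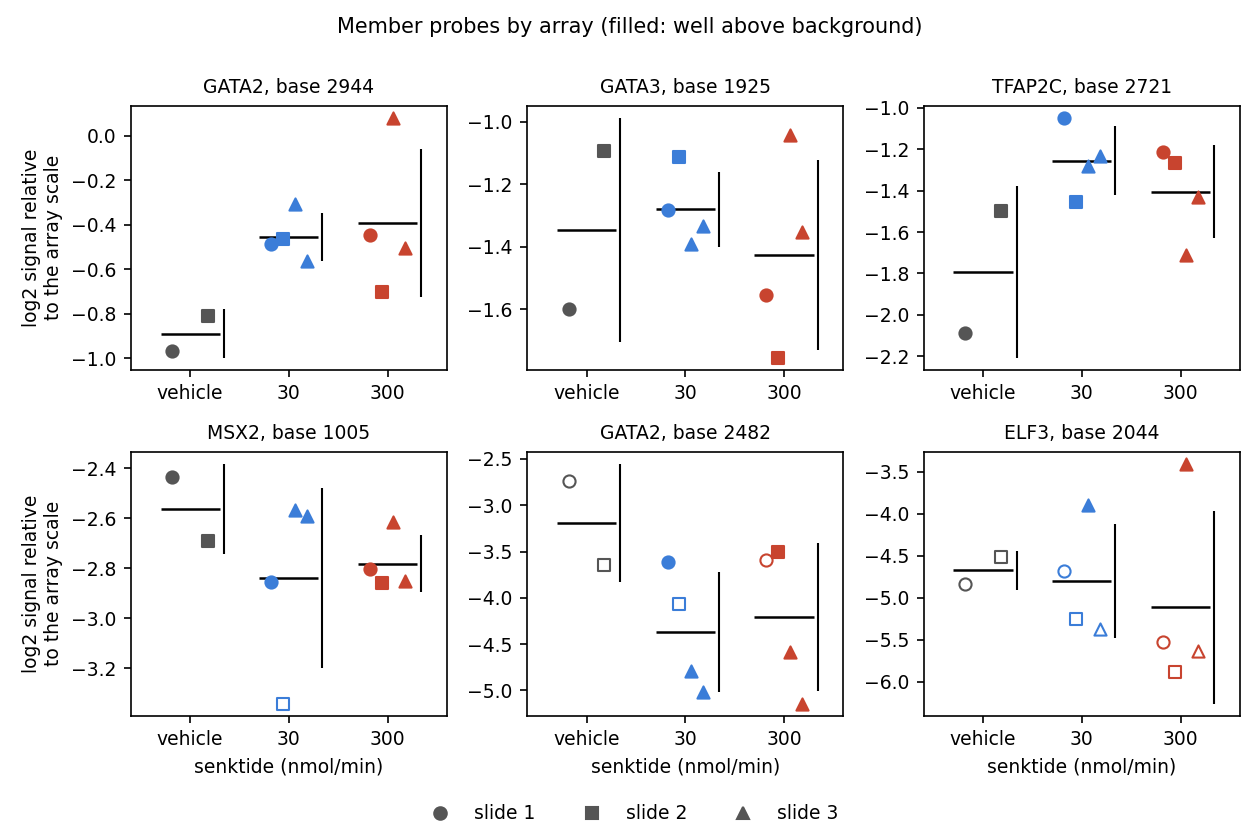
Log2 signal relative to the array's scale for the 6 member probes tested, by group, with the marker giving the slide and filled points well above background; horizontal lines are means and vertical lines 1 SD either side (n = 2, 4 and 4). Both senktide groups lie above both vehicle arrays for GATA2 at base 2944, and the 30 nmol/min group does for TFAP2C.

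Groups that do not overlap were common on this array. Among the 3 member probes flagged on all 10 arrays, 2 did not overlap at 30 nmol/min against vehicle, beside 20.7% of the 2491 such probes. At 300 nmol/min 1 of 3 did not overlap, beside 24.6%, and between the doses 0 of 3, beside 3.13%. Probes that lay wholly higher made up 7.91%, 9.19% and 1.93%.

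**Figure D4:**
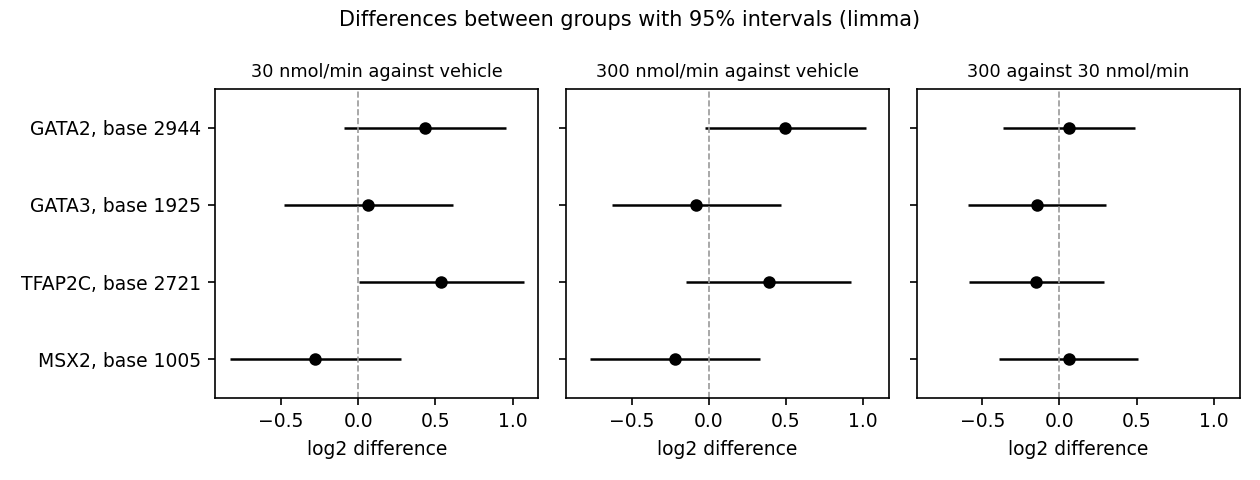
Log2 differences with 95% intervals from limma for the 4 member probes well above background on 9 or more arrays, in 3 comparisons. 11 of the 12 intervals span 0, and that of TFAP2C at 30 nmol/min against vehicle runs from 0.00 to 1.07.

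The scale set the direction of several members but not of GATA2 at base 2944 or TFAP2C. Scaling to the 75th percentile of all probes moved the median of the tested probes from −0.11 to 0.95 at 30 nmol/min and from −0.11 to 1.06 at 300 nmol/min, and quantile normalization moved it to 0.32 and 0.37. Relative to the median of all tested probes, GATA2 lay 0.54 and 0.61 higher at the 2 doses on the main scale. After quantile normalization it lay 0.12 and 0.13 higher. TFAP2C lay 0.65 and 0.50 higher, then 0.34 and 0.14. The all-probe scale differs from the main scale by a constant per array, so it gives the same relative values by construction. GATA3 lay at 0.18 and 0.03 from the median on the main scale but at −0.21 and −0.42 after quantile normalization. MSX2 lay at −0.17 and −0.11, and at −0.48 and −0.30 after quantile normalization. Taken as such, the differences from vehicle on the all-probe scale changed sign for MSX2 and ELF3 at both doses and for GATA3 and the GATA2 probe at base 2482 at 300 nmol/min, where the median of all tested probes was itself 0.95 and 1.06.

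The 3 members read on all arrays did not share 1 pattern. Over 10 arrays GATA2 at base 2944 correlated with GATA3 at r = 0.474 and with TFAP2C at r = 0.214, and GATA3 with TFAP2C at r = −0.06. Over the 8 senktide arrays the same pairs had r = 0.680, −0.69 and −0.56. The nearest genes were sought among 1618 others read on all arrays. Those nearest to GATA2 were the annexin ANXA2 (r = 0.913), the dihydroceramide desaturase DEGS1 (r = 0.900) and the methyltransferase METTL13 (r = 0.892). Those nearest to GATA3 were the histone deacetylase HDAC1 (r = 0.860), GRTP1 (r = 0.842) and the spindle checkpoint gene BUB3 (r = 0.840). Those nearest to TFAP2C were the kinase MAPKAPK2 (r = 0.852), PRKRIP1 (r = 0.850) and the actin crosslinker ACTN1 (r = 0.820). The points share arrays, scale and slide, and the highest of 1618 correlations is high by selection.

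The Hippo pathway, whose kinases keep TEAD coactivators out of the nucleus, was read in part. Of 17 such genes on the array, 8 were well above background on some array and WWC1, an upstream scaffold, on all 10. For this and the lists below, the share over all genes was not computed. By probe, 5.71% of all 43653 were flagged on all 10 arrays, and 32476 on 0. In limma, 0 of 8 tested genes passed at any comparison, with 0 at an unadjusted p under 0.05. All 8 fitted differences were below 0 against vehicle on the main scale. Their medians were −0.45 and −0.56 beside −0.11 over all tested probes at both doses. The sign depended on the scale. On the all-probe scale 6 of 8 were above 0 at both doses, and after quantile normalization 4 and 5 of 8 were. TEAD2, TEAD3, LATS1 and LATS2 were well above background on 0 vehicle arrays. The list median lay −0.34 and −0.45 from that of all tested probes on the main scale, and −0.16 and −0.13 from it after quantile normalization. On the all-probe scale the medians themselves were 0.61 and 0.61 beside 0.95 and 1.06, with the main scale's distances by construction. The smallest p values at 300 nmol/min were those of the kinase TAOK1, at −1.73 (SE 0.79, limma adjusted p = 0.365; −0.82 with slide as a block), and the TEAD coactivator WWTR1, at −1.41 (SE 0.68, limma adjusted p = 0.378). WWTR1's probe was well above background on 1 of 2 vehicle arrays and 2 of 4 in each senktide group, and TAOK1's on 1, 0 and 1.

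Of 17 paralogues of the members on the array, 6 were well above background on some array and 0 on all. GATA4, GATA6, TFAP2B and ELF5 were so on 0 arrays. As in the Hippo list, most fitted differences from vehicle were below 0 on the main scale, 5 of 5 at 30 and 4 of 5 at 300 nmol/min. Their medians were −0.28 and −0.74, beside −0.11 over all tested probes at both doses. On the all-probe scale, and after quantile normalization, 4 of 5 were above 0 at both doses. ELF2, ID1, MSX1 and TBX3 were well above background on 0 vehicle arrays. In limma 0 of 5 tested passed, with 1 at an unadjusted p under 0.05 at 300 nmol/min, the homeobox gene MSX1. Its probe was well above background on 0 vehicle and 0 of the 300 nmol/min arrays, so no fold is given. The ETS gene ELF1 was at −1.56 (SE 0.75, limma adjusted p = 0.377), at −0.76 with slide as a block, and at −0.98 and −2.14 without vehicle replicate 1 or 2.

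Among 27 other trophoblast regulators on the array, 14 were read on some array and KLF4, KLF6, CITED2 and CEBPA on all 10. HAND1, ASCL2, GCM1 and PPARG were so on 0 arrays. In limma 0 of 11 tested passed, with 1 at an unadjusted p under 0.05 in each comparison. That at 300 nmol/min was SMARCA4, the ATPase of a chromatin remodeller, at −1.52 (SE 0.34, limma adjusted p = 0.172). Of the other settings run, it passed with normexp and quantile normalization alone (−0.53, limma adjusted p = 0.0439), and its limma adjusted p was 0.061 after quantile normalization and 0.686 on the all-probe scale. Its means were −1.91 ± 0.50 in vehicle (SD, n = 2) and −3.43 ± 0.44 (n = 4). Between the doses it was the zinc finger gene KLF6, whose means were −1.69 ± 0.08 in vehicle (SD, n = 2), −1.96 ± 0.17 at 30 (n = 4) and −1.29 ± 0.12 at 300 nmol/min (n = 4). Its difference between doses was 0.68 (SE 0.15, limma unadjusted p = 0.0015, adjusted p = 0.999).

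Proteins that bind the members showed CITED1 on all 10 arrays and LMO4 on 9, of 12 on the array. In limma 0 of 6 tested passed, with 2 at an unadjusted p under 0.05 at each dose against vehicle. At 300 nmol/min these were CREBBP, an acetyltransferase, (limma adjusted p = 0.287), and KCTD1, which binds AP-2 factors (limma adjusted p = 0.332). Both were well above background on 0 vehicle arrays and entered the tests through the senktide arrays alone, so their p-values are descriptions. KCTD1 was at least 1.1-fold higher than its bound in vehicle, at least 2.48-fold on the all-probe scale, and has no fold without vehicle replicate 2. Its fitted difference was 0.35 without vehicle replicate 1 and 1.88 without vehicle replicate 2. No fold is given for CREBBP, whose fitted difference lay −0.90 from the median of all tested probes on the main scale.

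Products of the trophectoderm are described by flag. Of 30 on the array, 23 were well above background on some array and 12 on all 10, beside 6 and 3 of the 10 members. Among the 12 were the keratins KRT8, KRT18 and KRT19, the adhesion molecule CDH1 and the water channel AQP3. In limma 0 of 23 tested passed on the main scale, with 3, 6 and 3 at an unadjusted p under 0.05. After quantile normalization 1 of 23 passed at 30 and 2 at 300 nmol/min against vehicle, beside 107 and 145 of all tested probes. After normexp with quantile normalization 0 and 2 passed, beside 36 and 107. PTGS2, the inducible prostaglandin synthase, was well above background on 0 vehicle and all 8 senktide arrays. It entered the tests through the senktide arrays alone and was named for its small p, so its p-values are descriptions. It was at least 1.54-fold higher at 300 nmol/min than its bound in vehicle (limma adjusted p = 0.1001), at least 1.19-fold and 2.00-fold without 1 or the other vehicle array, and at least 3.48-fold on the all-probe scale. Its limma adjusted p was 0.0072 after quantile normalization and 0.0413 after normexp with quantile normalization, where it passed. The desmosomal cadherin DSC2 was well above background on 0 vehicle, 2 and 4 arrays and entered the tests in the same way. Its limma adjusted p was 0.172, and 0.040 after quantile normalization, and no fold is given.

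Genes of the inner cell mass and primitive endoderm had 11 of 22 read on some array and SOX2, HNF4A and FN1 on all 10. In limma 0 of 9 tested passed on the main scale, with 1, 1 and 0 at an unadjusted p under 0.05. After quantile normalization 1 of 9 passed at each dose against vehicle, beside 107 and 145 of all tested probes. The basement membrane collagen COL4A1 was at least 1.19-fold higher at 300 nmol/min than its bound in vehicle (limma adjusted p = 0.273, and 0.0464 after quantile normalization, where it passed) and at least 2.68-fold on the all-probe scale, and has no fold without vehicle replicate 2. COL4A1 was well above background on 0 vehicle, 4 and 3 arrays. It entered the tests through the senktide arrays alone, so its p-values are descriptions. FGF4, a growth factor of the inner cell mass, was well above background on 0, 1 and 1 arrays, and no fold is given.

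Some markers of other cells were read. Leukocyte and blood genes were well above background at 1 of 10 on every array of slides 1 and 2 but replicate 2 at 300 nmol/min, which had 2, and at 4 of 10 on every array of slide 3. Their summed signal relative to the scale was 0.229 to 0.262 in vehicle, 0.145 to 0.436 at 30 nmol/min and 0.177 to 0.489 at 300 nmol/min. LYZ was read on all 10 arrays, PTPRC on 5, and ITGB2 and HBA on 4 each. CD14, S100A8, S100A9, HBB, CD3E and CD79A were read on 0. Uterine epithelium had 0 to 2 of 9 genes, with CLU read on 8 arrays, KRT5 on 5 and MUC1 on 1. OVGP1, PAEP, SERPINA14, FOXA2, ESR1 and PGR were on 0 arrays. Its genes summed 0 to 0.298 in vehicle, 0.126 to 0.357 at 30 and 0 to 0.132 at 300 nmol/min. Stroma had 0 to 2 of 7, with COL1A2 on 5 arrays, DCN on 2, PDGFRB on 1, and COL1A1, COL3A1, LUM and VIM on 0. Its genes summed 0 to 0.284 in vehicle, 0 to 0.0978 at 30 and 0 to 0.108 at 300 nmol/min. Cumulus and granulosa cells had 0 to 2 of 8, with 6 markers on 0 arrays, and oocyte remnants 0 to 1 of 8, with GDF9, BMP15 and ZAR1 among 7 on 0 arrays. Vehicle summed 0 for both, cumulus and granulosa genes summed 0 to 0.0307 and 0 to 0.114 at the 2 doses, and oocyte genes 0 to 0.0526 and 0 to 0.0382. The part of these cells in the members' values was not tested, and fewer cells of a type and less RNA per cell cannot be told apart in such samples.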

How the data were processed

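Cy3-labelled total RNA was run on 1-colour Agilent bovine arrays, per the labels. Spot intensity values in the deposited scanner files were background-subtracted by the authors' Agilent Feature Extraction, version 11.5.1.1 per the file headers and 10.5.1.1 per the submitters' processing notes. The labels name a Quick Amp labelling kit, a type that primes at the poly(A) tail. The deposited value table holds log2 values; scale and centring are not given in the sources used here, but it equalled the all-probe-scaled, probe-median-centred signal within 0.01 for 99.88% or more of an array's values, which settles its direction. The table's medians were 0.22 and 0.12 in vehicle, 0.0447, 0.0659, −0.13 and −0.31 in the 30 nmol/min group, and 0.16, −0.18, −0.28 and −0.23 in the 300 nmol/min group.

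Spots of 1 probe were averaged without outlier spots; 0 spots were saturated. Log2 signals were set against each array's 75th percentile over the 2491 probes flagged well above background on every array. Of 43653 probes, 8934 were so on at least 2 arrays and were tested in limma 3.58.1 under R 4.3.3 (lmFit, eBayes, checked on simulated data), 1 coefficient per group, with Benjamini-Hochberg adjustment and a threshold of 0.05. Where no array of a group read a probe well above background, the group has a bound: per array, the lowest signal of any probe so flagged, or the probe's own if that is higher. The number of arrays limits the precision. Python 3.11.15, pandas 2.3.3, numpy 2.4.6 and matplotlib 3.10.9 did the rest. Coordinates are the files' (Btau_3.1). Gene names were matched to a RefSeq table of ARS-UCD2.0, used for names only: 20595 probes by their accession, 707 by a further accession, 10745 by symbol and 376 by synonym, while the file's name was kept for 2559 and 8671 carried none. All 24 member probes matched.

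The members and gene lists were chosen with earlier results of these data known. Named were all 10 members, the 3 genes nearest to each member read on all arrays, and the 2 genes of each list with the smallest p at 300 nmol/min against vehicle; KLF6 between the doses and REXO2 were named after their values were seen. A gene's brightest tested probe stood for it in the lists. Arrays lay on 3 slides, each scanned at 1 time: slides 1 and 2 held 1 array of every group. Alternatives changed the scaling, background correction, filter, slide, pairing or arrays used.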

Additional observations from a re-analysis of the deposited data

Results flagged for a closer look

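ELF3 at base 2044 had 1 array far from the others of its group. Replicate 3 at 300 nmol/min lay at −3.41 on the scaled log2 axis, while the other 3 arrays lay at −5.53, −5.89 and −5.63. The gap was 0.854 of the group's range. It was 1 of 12 groups of 4 arrays examined in this way, and chance marks about 1 group in 20. Replicate 3 at 30 nmol/min, on the same slide, was the highest of its group at −3.89.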

How the results depend on the processing

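For the members, 0 probes passed under any alternative run that kept both vehicle arrays. Runs that left out a vehicle array were read for their differences alone. Of 333 alternative values of the 18 member differences, 299 kept their direction and 34 turned it. Many of the 299 could not turn. Leaving out an array of a group outside the comparison, or changing only the filter, returned the main difference. The authors' value table nearly repeated the all-probe scale, and the replicate block repeated the slide block. Neither count is therefore a count of separate checks. GATA2 at base 2944 and TFAP2C kept their direction against vehicle in every alternative. The values ran at 0.33 to 1.49 and 0.32 to 1.67 (GATA2) and 0.24 to 1.60 and 0.09 to 1.56 (TFAP2C). The upper ends are from the all-probe scale, where the median of all tested probes was itself 0.95 and 1.06.

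With the 75th percentile taken over all probes, ELF3 turned to 0.93 and MSX2 to 0.78 at 30 nmol/min, and GATA3 to 1.09, ELF3 to 0.73, MSX2 to 0.95 and GATA2 at base 2482 to 0.155 (all against vehicle) at 300 nmol/min. The authors' value table gave 0.93, 0.78, 1.09, 0.73, 0.95 and 0.154. Quantile normalization gave ELF3 0.95 and 0.75 and MSX2 0.0698 (300 nmol/min). Normexp with quantile normalization gave GATA3 −0.061 (30 nmol/min), ELF3 0.0521 and 0.0556, and ELF3 0.0035 between the doses. Of the list genes at 300 nmol/min, MSX1 turned to 0.41, 0.60, 0.16 and 0.41 and CREBBP to 0.16 and 0.16 in the settings that changed them. Slides 1 and 2 alone turned GATA2 at base 2944 to −0.10 and TFAP2C to 0.0134 between the doses. The cause was not tested.

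Under a slide block, and under the replicate block, GATA3 at 30 nmol/min turned to −0.0070. The replicate numbers were not taken to pair samples, though the check is limited: same-numbered senktide arrays correlated at r = 0.487 to 0.574, differently numbered ones of slide 3 at 0.544 and 0.492 and of slides 1 and 2 at 0.413 and 0.417, and numbers 1 and 2 coincide with slides. The deviations of 2 vehicle arrays mirror each other, so their values (0.124 and 0.179, −0.19 and −0.20) are no check of their own. The replicate block changed no member call, with 0 called in each comparison.

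Leaving out 1 array at a time, differences at 30 nmol/min ran from −0.19 to 0.32 (GATA3) and −0.43 to 0.0675 (ELF3). At 300 nmol/min GATA3 ran from −0.33 to 0.17 and ELF3 from −1.01 to −0.18. MSX2 ran from −0.41 to −0.11 and −0.35 to −0.0907 at the 2 doses, at −0.15 and −0.0907 without vehicle replicate 1. Between the doses they ran from −0.0686 to 0.48 (GATA2 at base 2482), −0.0944 to 0.17 (GATA2 at base 2944) and −0.11 to 0.15 (MSX2).

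Over all probes, calls at 30 nmol/min rose from 0 to 107 (quantile) and 36 (normexp), and ran from 0 to 36 with 1 array left out, at 34 without vehicle replicate 1 and 36 without vehicle replicate 2. At 300 nmol/min 1 call became 145 and 107 in those settings and 0 with all-probe scaling, no filter, the all-array filter, the value table, the slide block, the replicate block or slides 1 and 2; it ran from 0 to 50 with 1 array left out, at 32 and 50 without vehicle replicate 1 or 2. Between the doses 0 became 1 with normexp and with the replicate block. With the scanner's looser flag (positive and significant), 14, 12.75 and 14.25 member probes per array were detected in vehicle, 30 and 300 nmol/min, in place of 4.5, 5 and 5. Members other than GATA2, GATA3, TFAP2C and MSX2 lay near background, which limits what these arrays show of them.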
